A study of Mus musculus with 2 samples.

Results

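The 7 genes described here carry MHC class II antigen presentation: Cd74, H2-Aa, H2-Ab1, H2-Eb1, H2-DMa, H2-DMb1 and Ciita, of 19465 genes on the probe panel. They were picked by symbol after a class II gene list had been scored on the ratio between the genotypes, so that ratio is given as a description. Their RNA was measured by spatial transcriptomics (ST) on fixed liver sections, 1 from a mouse lacking AEG-1 in its myeloid cells (AEG-1DMAC, written AEG-1ΔMAC in the study) and 1 from an AEG-1 floxed littermate (AEG-1fl/fl). AEG-1 is the product of Mtdh. Both mice carried the floxed gene, and in AEG-1DMAC a Cre expressed from the lysozyme M locus (Lyz2) deletes it in myeloid cells such as macrophages, so hepatocytes keep AEG-1. Lyz2 itself had 25 and 41 UMIs in the AEG-1DMAC and AEG-1fl/fl sections. The labels gave both mice as 27 weeks old and as fed a high fat/high sugar diet (HF/HSD) since week 7. The text of the study, in contrast, places this assay in littermates on control diet. Which diet the mice received cannot be told apart here. There was 1 library of each genotype, so no value below has a replicate and no test of the genotypes was possible.

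MHC class II molecules are pairs of an alpha and a beta chain that show peptides from engulfed proteins to CD4+ T cells. Newly made pairs are held by the invariant chain, which Cd74 encodes, and the DM proteins later help to exchange its remnant for a peptide. Transcription of these genes depends on Ciita, the class II transactivator, a coactivator that has no DNA-binding domain of its own and acts through factors bound to the X and Y boxes of their promoters. In liver, class II is known from dendritic cells, Kupffer cells (the resident macrophages), B cells and, at lower levels, sinusoidal endothelium.

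Because these genes are read through shared promoter boxes, the stretches that hold them are shown for the members with a RefSeq promoter entry on chromosome 17 (GRCm38.p6) that had a match close to the start, and for 2 class II genes outside the 7. Each run is 5′ to 3′ on the gene's strand, from 120 to 21 bases before the annotated start, with AGNAAC (a half-site of the X1 box) and ATTGG (the Y box) in capitals where they lie on that strand.
H2-Eb1 (chr17:34305747-34305846, plus strand): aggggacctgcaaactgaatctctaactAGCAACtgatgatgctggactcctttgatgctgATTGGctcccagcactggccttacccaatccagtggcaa
H2-DMb1 (chr17:34153071-34153170, plus strand): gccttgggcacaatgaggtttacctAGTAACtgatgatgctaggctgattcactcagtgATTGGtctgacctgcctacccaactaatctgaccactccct
H2-Aa (chr17:34287844-34287943, minus strand): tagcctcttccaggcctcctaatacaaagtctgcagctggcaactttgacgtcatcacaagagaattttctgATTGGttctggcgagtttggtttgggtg
H2-Ob (chr17:34238785-34238884, plus strand): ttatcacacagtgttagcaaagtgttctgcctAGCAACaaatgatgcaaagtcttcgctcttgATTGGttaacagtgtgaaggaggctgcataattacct
H2-DMb2 (chr17:34145129-34145228, plus strand): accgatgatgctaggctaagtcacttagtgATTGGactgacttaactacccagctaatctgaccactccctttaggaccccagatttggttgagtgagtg

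H2-Eb1 had AGNAAC 92 bases before the start with ATTGG following 33 bases further on, and H2-DMb1 had them 34 bases apart, from 95 bases before the start. Of 4 other class II genes with an entry, 3 held the same pair, H2-Oa 34, H2-Eb2 33 and H2-Ob 31 bases apart. In H2-Aa only ATTGG was found, 48 bases before the start, and H2-DMb2, the remaining one of those outside the 7, had ATTGG alone at 90 bases. Neither of the 2 windows of H2-DMa held the pair. Of the 7 genes 4 had an entry, and 2 of these 4 held AGNAAC followed by ATTGG starting 15 to 45 bases later. Over all 32851 windows of 300 bases, searched on both strands, 48.1% held AGNAAC, 37.4% held ATTGG and 1.67% held the pair in that order and distance. A match of letters is a description of the window and no evidence of binding.

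All 7 genes were higher in the AEG-1DMAC library. Together they took 825 of every 1000000 UMIs there (825 CPM) and 409 CPM in the AEG-1fl/fl library, which as a log2 ratio is 1.01 (95% counting interval 0.99 to 1.04), while the median log2 ratio was 0.13 over the 11178 genes that averaged 1 CPM or more. A UMI is a tag that marks 1 captured molecule, and intervals cover counting error only. Counted as at least 1.5-fold higher, with the interval on the same side of 1, were 7 of 7 genes, against 5.28% of all genes tested. At least 1.5-fold lower were 3.9% of all genes and none of the 7. Since the genes had been picked on this ratio, the count is not evidence of a class II difference. The assay reads RNA through gene-specific probes, so levels are compared between libraries and not between genes. In a section, fewer cells of a type and less RNA per cell cannot be told apart.

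The invariant chain gene Cd74 (chromosome 18, 60803848 to 60812652, plus strand, protein-coding as are the other members; GRCm38) had 472 CPM in AEG-1DMAC and 248 CPM in AEG-1fl/fl, from 21450 and 12462 UMIs. Its log2 ratio was 0.93 (0.90 to 0.96). Cd74 supplied the most UMIs of the 7 genes in both libraries, and without it the other 6 together had a larger log2 ratio, 1.13 (1.09 to 1.17).

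The chains of the peptide-presenting molecules lie close together in the MHC on chromosome 17. H2-Aa (34282744 to 34287823, minus strand), the alpha chain of I-A, had 141 CPM in AEG-1DMAC and 67.1 CPM in AEG-1fl/fl, for a log2 value of 1.07 (1.01 to 1.13). H2-Ab1 (34257689 to 34269419, plus strand), its beta chain, had 107 CPM and 45.3 CPM, a log2 ratio of 1.24 (1.16 to 1.31). H2-Eb1 (34305867 to 34316674, plus strand), the beta chain of I-E, had 67.9 CPM and 27.6 CPM, a log2 ratio of 1.30 (1.21 to 1.39). These chain genes were all more than 2-fold higher in AEG-1DMAC, with counting intervals above the interval of Cd74. With edgeR TMM factors as the scaling H2-Aa was at 0.95, just under 2-fold. H2-Ea, which encodes the alpha chain of I-E, was not analysed, so H2-Eb1 RNA is no measure of I-E molecules.

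The subunits of DM, which edits the peptide load, had smaller ratios. H2-DMa (chromosome 17, 34119541 to 34139101, plus strand) had 20.4 CPM in AEG-1DMAC and 11.9 CPM in AEG-1fl/fl, for a log2 value of 0.77 (0.62 to 0.92). H2-DMb1 (chromosome 17, 34153072 to 34160230, plus strand) had 10.6 CPM and 6.34 CPM, a log2 ratio of 0.74 (0.53 to 0.95) from 480 and 319 UMIs. H2-DMb1 is a near copy of H2-DMb2: their longest protein-coding transcripts were identical at 94.1% of 1219 aligned bases, so how well probes keep them apart is uncertain. H2-DMb2 had 4.44 CPM and 4.99 CPM, a log2 ratio of -0.17 (-0.44 to 0.11), an interval that does not meet that of H2-DMb1.

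Ciita (chromosome 16, 10480059 to 10528418, plus strand), the transactivator, had 7.06 CPM in AEG-1DMAC and 3.12 CPM in AEG-1fl/fl, for a log2 value of 1.18 (0.90 to 1.46) from 321 and 157 UMIs. The interval of Ciita overlapped those of the 3 chain genes, of Cd74, and of H2-DMa and H2-DMb1. With a limit of 2-fold in place of 1.5-fold, H2-Aa, H2-Ab1, H2-Eb1 and Ciita were counted, 4 of 7, against 1.74% of all genes.

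**Figure D1:**
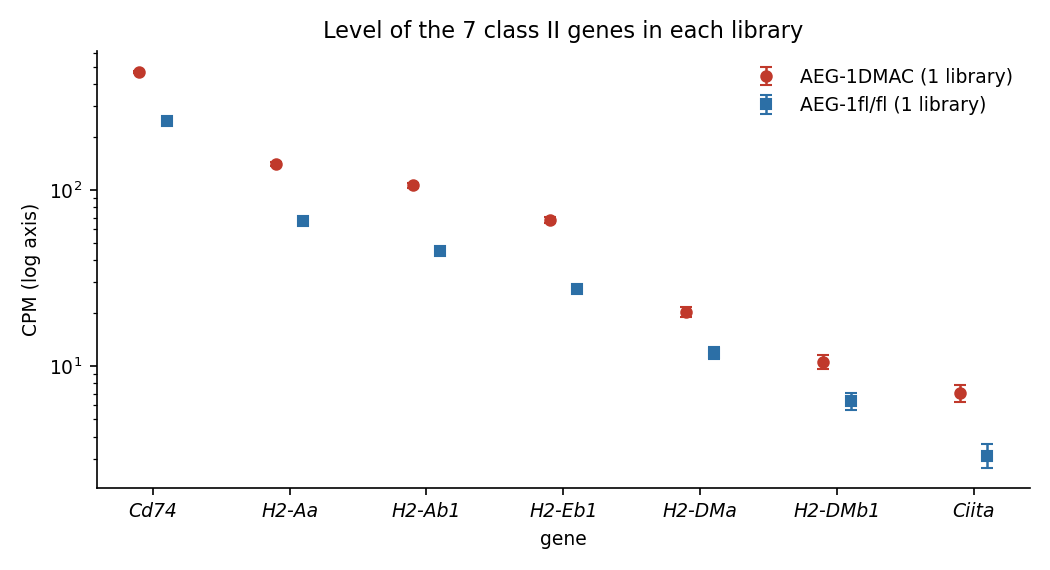
Level of each class II gene (CPM, log axis) in the AEG-1DMAC library (circles) and the AEG-1fl/fl library (squares), with exact Poisson 95% intervals; each point is 1 library. Every gene lies higher in AEG-1DMAC, from 472 against 248 CPM for Cd74 to 7.06 against 3.12 CPM for Ciita.

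The other genes of the pathway were examined next. Of the remaining class II genes, 3 averaged 1 CPM or more and 0 of these 3 were past 1.5-fold. H2-Oa and H2-Ob form DO, an inhibitor of DM that is known mainly from B cells, and had log2 ratios of 0.29 (-0.25 to 0.83) and -0.01 (-0.36 to 0.35), from 64 against 58 and 126 against 140 UMIs. At this depth no difference was detectable for either. H2-Eb2 was represented by 13 and 17 UMIs.

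Among 13 regulators of class II genes that reached 1 CPM and are reported here, 1 was at least 1.5-fold higher in AEG-1DMAC and 0 were lower, and their median log2 ratio was 0.10 against 0.13 for all genes. Socs1, a feedback inhibitor of cytokine signalling, had a log2 ratio of 0.73 (0.31 to 1.16) from 117 and 78 UMIs. Irf8, a transcription factor of dendritic cells and macrophages, had 15.7 and 11.3 CPM, a log2 ratio of 0.47 (0.31 to 0.64). Rfx5 and Rfxank, subunits of the complex that binds the X box, were below 0 at -0.26 (-0.49 to -0.03) and -0.48 (-0.66 to -0.29). Irf1, an interferon-responsive factor, had 31.0 and 30.8 CPM, a log2 ratio of 0.01 (-0.10 to 0.11). Ifng itself had 4 and 3 UMIs, too few for a ratio to be read.

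None of 5 genes that process engulfed antigen was past 1.5-fold, and their median log2 ratio was -0.13. Ctss, the protease that trims the invariant chain in antigen-presenting cells, had 85.2 and 66.2 CPM, the highest log2 ratio of this list at 0.37 (0.30 to 0.43). Ctsl, a protease of lysosomes in many cell types, had the lowest at -0.26 (-0.28 to -0.24). Of 4 costimulators 1 was past 1.5-fold: Cd274, encoding the inhibitory ligand PD-L1, had 5.21 and 3.14 CPM, a log2 ratio of 0.73 (0.44 to 1.03). Cd86, a costimulator on antigen-presenting cells, had 6.49 and 7.41 CPM, a log2 ratio of -0.19 (-0.42 to 0.03).

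Class I presentation, which shows peptides of the cell's own proteins, was taken for comparison. Of its 11 genes, 4 were at least 1.5-fold higher in AEG-1DMAC and 0 were lower, and the median log2 ratio was 0.39. Nlrc5, the transactivator of class I and a relative of Ciita, had 14.1 and 7.51 CPM, a log2 ratio of 0.91 (0.73 to 1.10). Psmb9 and Psmb8, subunits of the immunoproteasome, had log2 ratios of 0.69 and 0.60, and Tap1, a subunit of the peptide transporter, had 0.60. B2m, the light chain of class I, was lowest at 0.16 (0.15 to 0.18). With edgeR TMM factors as the scaling, the count fell from 4 to 1, because Psmb9, Psmb8 and Tap1 lay close to the limit.

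**Figure D2:**
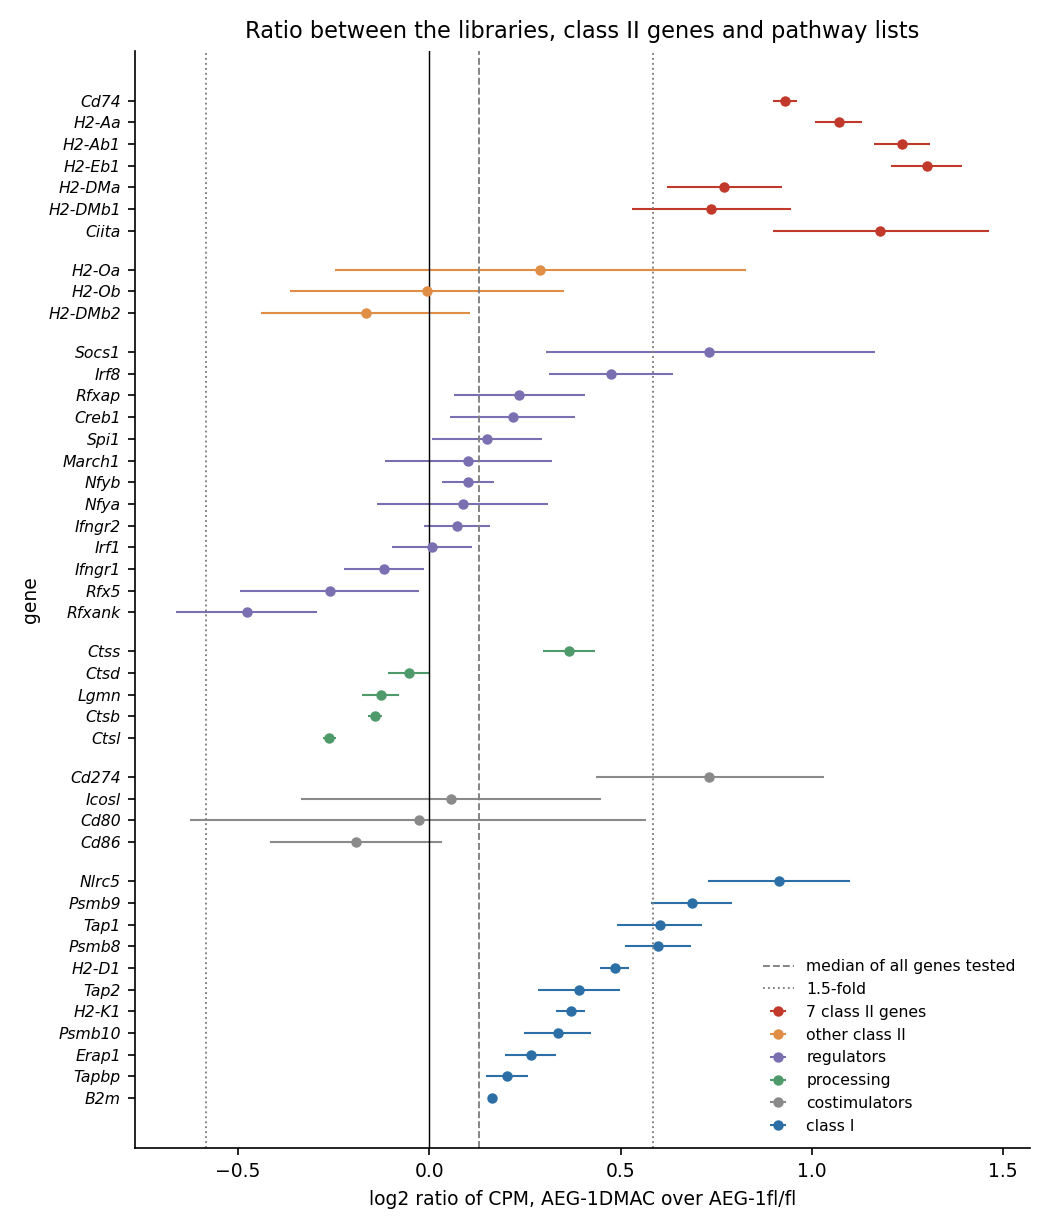
Log2 ratio of CPM, AEG-1DMAC over AEG-1fl/fl, with exact 95% counting intervals, for the 7 class II genes and for the reported genes of 5 pathway lists that averaged 1 CPM or more. The dashed line marks the median of all genes tested (0.13) and the dotted lines 1.5-fold, and the 7 class II genes have values from 0.74 to 1.30, whereas the other class II genes lie between -0.17 and 0.29.

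Markers of the cell types that could carry class II RNA moved in different directions between the libraries. The Kupffer list of 10 genes summed to 996 CPM in AEG-1DMAC and 931 CPM in AEG-1fl/fl (log2 ratio 0.10), with Clec4f at 0.05 and Marco, a scavenger receptor, at -1.38. A second list, of 5 Kupffer genes that the study used and of which 4 are also in the first, went the other way, with Fabp5 at -1.84 and sums of 574 and 641 CPM (log2 ratio -0.16, -0.18 to -0.13), so the direction for Kupffer markers depended on the list. The dendritic cell list of 10 genes summed to 29.5 and 24.9 CPM, and its log2 ratio was 0.25 (0.13 to 0.36), and none of the 5 genes that reached 1 CPM was past 1.5-fold. Below that level, Flt3, the receptor for a dendritic cell growth factor, had 56 and 16 UMIs, and Xcr1, a receptor of cross-presenting dendritic cells, had 62 and 27 UMIs. Both had the highest ratios of the list, and not all members shared them. Siglech had 53 and 70 UMIs and Zbtb46 had 467 and 510 UMIs. All 4 B cell markers tested were at least 1.5-fold lower in AEG-1DMAC, with a sum of 9.70 against 21.0 CPM. All 8 T cell markers tested were at least 1.5-fold higher, with a sum of 26.1 against 13.2 CPM. The neutrophil list was lower, at 5.06 against 18.9 CPM. S100a9 and S100a8, with the most UMIs of this list in AEG-1fl/fl, had 73 and 501 UMIs and 40 and 264 UMIs. Csf3r, with 98 and 143 UMIs, was not past 1.5-fold, and Cxcr2 had 10 and 9 UMIs. Sinusoidal endothelium was at 496 and 500.2 CPM. A background list of 14 genes, chosen as little used by liver, had at most 24 and 26 UMIs each, the 26 for Gfap.

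The class II ratio was then taken within spots that had, or lacked, a UMI of a marker list, after each spot was thinned to 10000 UMIs. A spot is a small region of tissue that usually covers more than 1 cell and often more than 1 cell type, and a spot without a marker UMI can still hold the cell. In spots without a dendritic marker UMI the log2 ratio of summed class II UMIs was 0.92 (0.88 to 0.96), and with one it was 1.12 (1.06 to 1.19). In spots without a T cell marker UMI it was 0.93 (0.89 to 0.97), and with one 0.97 (0.89 to 1.05). In spots without a vessel wall marker UMI it was 0.99 (0.94 to 1.03), and with one 1.21 (1.15 to 1.27). The opposite order was seen for vessel endothelium, with 0.997 (0.96 to 1.04) in spots without a marker UMI and 0.85 (0.77 to 0.92) with one, and the values for mesothelium were 1.03 and 0.88 and for NK cells 1.002 and 0.93. Over the 11 lists split in this way the ratio lay between 0.85 and 1.21.

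Along the lobule, class II RNA was higher toward zone 1, the periportal side, in both libraries. Spots were ranked in each library by an index of hepatocyte zone 3 over zone 1 markers and cut into 3 parts of equal size. The 7 genes summed to 937, 861 and 676 CPM in the zone 1, middle and zone 3 parts of AEG-1DMAC, and to 491, 433 and 301 CPM in those of AEG-1fl/fl. The log2 ratio of zone 3 over zone 1 was -0.47 (-0.51 to -0.43) in AEG-1DMAC and -0.71 (-0.76 to -0.66) in AEG-1fl/fl. At least 1.5-fold higher in zone 1 were 2 of 7 genes in AEG-1DMAC (H2-DMb1 and Ciita), against 4.79% of all genes, and 7 of 7 in AEG-1fl/fl, against 3.84%. These counts depended on the setting and lay close to the limit, with H2-DMa at 1.51-fold in AEG-1fl/fl. With only the outermost 10% of spots on either side they were 0 of 7 and 2 of 7 (H2-Eb1 and Ciita). Without the 5% of spots richest in class II they were 0 of 7 and 1 of 7 (Ciita), and with an index from landmark genes 2 of 7 and 7 of 7. No share of all genes is at hand for these other settings, so their counts are not a result about the 7 genes. These zone ratios had no part in how the genes were chosen.

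Cd74 had a zone ratio of -0.46 (-0.51 to -0.42) in AEG-1DMAC and -0.73 (-0.80 to -0.67) in AEG-1fl/fl, the only member whose intervals did not overlap between the libraries. H2-Aa was at -0.50 and -0.64, H2-Ab1 at -0.45 and -0.66, and H2-Eb1 at -0.53 and -0.70. H2-DMa had the flattest profile in AEG-1DMAC, with 20.2, 22.2 and 18.6 CPM in the 3 parts and a zone ratio of -0.12 (-0.36 to 0.12), an interval that met those of H2-Ab1, H2-DMb1 and Ciita only, against -0.59 (-0.89 to -0.29) in AEG-1fl/fl. Ciita had the steepest in AEG-1fl/fl, going from 4.29 CPM in the zone 1 part to 1.71 CPM in the zone 3 part, a zone ratio of -1.32 (-2.01 to -0.68) from 71 and 28 UMIs, against -0.60 (-1.01 to -0.20) in AEG-1DMAC. Of the 14 zone ratios, 13 had an interval below 0.

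Finer steps showed that the highest level was not at the zone 1 end itself. In AEG-1DMAC the sum was 750.3 CPM in the decile of spots nearest to zone 1, 1014 in decile 2, 1046 in decile 4 and 566 in decile 10. In AEG-1fl/fl it was 416 CPM in decile 1, 544 in decile 3, 507 in decile 5 and 282 in decile 10. Every decile of AEG-1DMAC lay above every decile of AEG-1fl/fl in value. The lowest of the former was 566 CPM (544 to 589) and the highest of the latter 544 CPM (523 to 565), with overlapping intervals. The order of the deciles too rests on the ratio that the genes had been picked on.

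**Figure D3:**
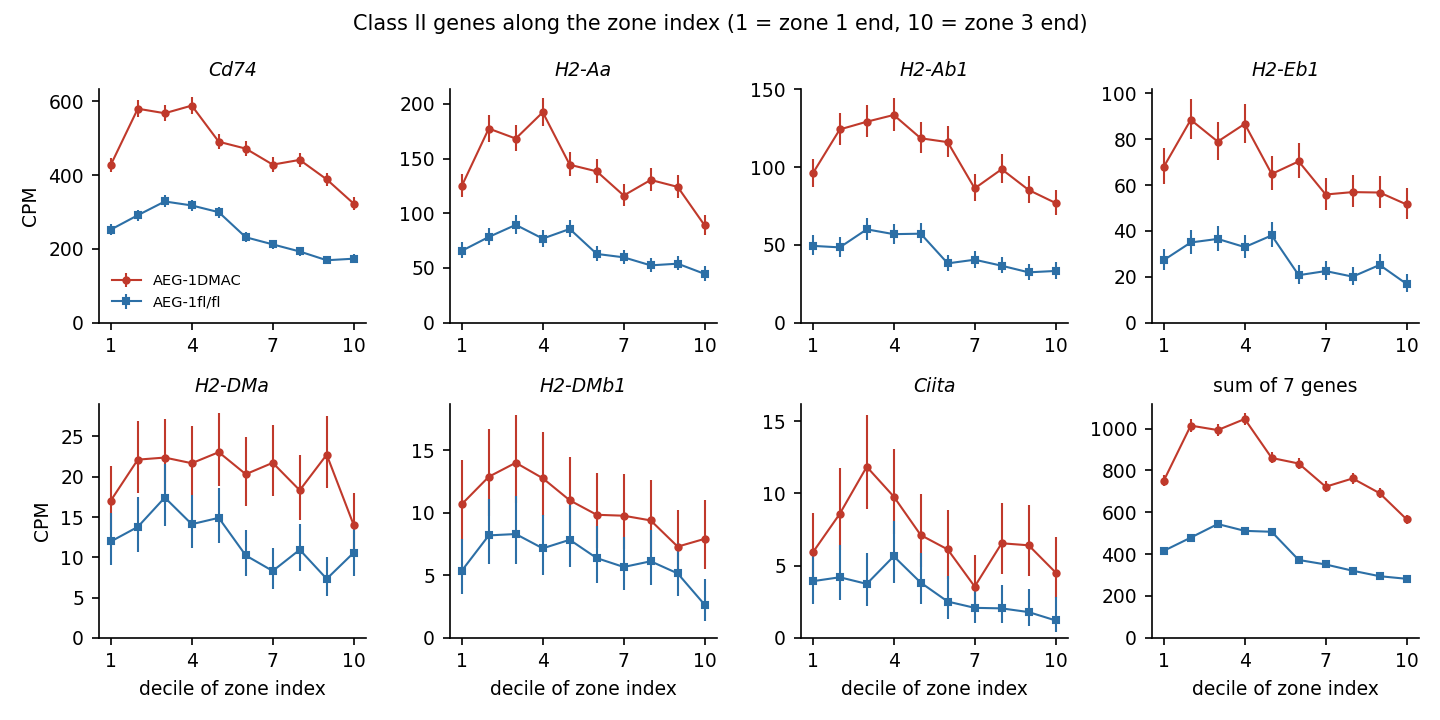
CPM of each class II gene and of their sum in 10 equal groups of spots ranked from the zone 1 end to the zone 3 end of each library, with Poisson 95% intervals (circles AEG-1DMAC, squares AEG-1fl/fl; each axis starts at 0). The sum is highest in decile 4 of AEG-1DMAC and decile 3 of AEG-1fl/fl and lower beyond, to 566 CPM in AEG-1DMAC and 282 CPM in AEG-1fl/fl at the zone 3 end.

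Taken within these parts, the log2 ratio of the sum between the libraries was 0.93 (0.89 to 0.97) in zone 1, 0.99 (0.95 to 1.03) in the middle and 1.17 (1.12 to 1.22) in zone 3, where the median of all genes was 0.12, 0.14 and 0.12. H2-DMa went from 0.49 (0.24 to 0.74) in zone 1 to 0.96 in zone 3, and Ciita from 1.02 (0.59 to 1.45) to 1.74 (1.11 to 2.41). With 1 library of each genotype, whether the ratio differed between zones could not be tested. The parts were ranked in each section by itself and may cover different stretches of the lobule, which was not tested. Zone 1 landmark genes kept out of the index had zone ratios of -1.53 in AEG-1DMAC and -0.68 in AEG-1fl/fl. Among them Apoa4, with the most UMIs, had -1.36 and 0.00. Zone 3 landmark genes had nearly equal zone ratios, 2.46 and 2.39. The Kupffer list had zone ratios of -0.39 (-0.43 to -0.36) and -0.67 (-0.71 to -0.64), beside -0.47 and -0.71 for the class II sum, and its part in the class II slope was not tested. T cell markers had -0.12 (-0.32 to 0.08) and 0.00 (-0.28 to 0.29). Dendritic cell markers had -0.38 and -0.27, vessel wall markers -1.96 and -0.81, and cholangiocyte markers -2.34 and -1.64. Sinusoidal endothelium went the other way, at 0.26 and 0.37, and B cell markers had 0.32 and -0.16. The part of these lists in the class II slope was not tested either.

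Without the 5% of spots in each library with the largest share of class II UMIs, the zone ratio of the sum was -0.22 (-0.26 to -0.18) in AEG-1DMAC and -0.39 (-0.45 to -0.34) in AEG-1fl/fl, and that of H2-DMa in AEG-1DMAC was 0.07 (-0.20 to 0.33). These spots were picked by the UMIs that the zone ratio is made of, so part of the change follows from the choice. The ratio between the libraries hardly moved when the same spots were left out, with a log2 value of 1.01 for the sum.

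Over spots, class II RNA was found more widely in AEG-1DMAC. Such shares of spots rise with the level of a gene. The genes had been picked on the ratio of levels, so this is no separate result. To compare spots of equal depth, each was thinned to 10000 UMIs, which left 2114 of 2140 spots in AEG-1DMAC and 2434 of 2540 in AEG-1fl/fl. Cd74 had a UMI in 94.9% (93.9 to 95.8) of AEG-1DMAC spots and 85.2% (83.7 to 86.6) of AEG-1fl/fl spots. H2-Aa was found in 66.3% and 43.9%, H2-Ab1 in 59.3% and 33.4%, and H2-Eb1 in 43.3% and 21.6%. H2-DMa was found in 18.3% and 12.1%, and H2-DMb1 in 9.84% and 6.78%. Ciita was found in 6.24% (5.25 to 7.36) and 2.71% (2.10 to 3.44), above the 0.851% and 1.03% of spots with a UMI of any of the 14 background genes. Without thinning, Ciita had a UMI in 12.0% and 5.79% of spots and Cd74 in 98.5% and 94.4%. At least 4 of the 7 genes were found together in 32.0% of AEG-1DMAC spots and 10.2% of AEG-1fl/fl spots.

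The sum of the 7 genes had a median of 7 UMIs per thinned spot in AEG-1DMAC, with 3 at the 10th percentile, 14 at the 90th and 155 in the richest spot. In AEG-1fl/fl the median was 3, with 1, 7 and 84 at the same points. All of these points were higher in AEG-1DMAC, which largely restates the ratio that the genes had been picked on. No class II UMI was found in 1.23% of AEG-1DMAC spots and 5.92% of AEG-1fl/fl spots. In relative terms the spread of the sum was close to equal. The richest 5% of spots held 20.4% of class II UMIs in AEG-1DMAC and 20.3% in AEG-1fl/fl. The squared coefficient of variation beyond counting error was 1.06 and 1.03. Single genes went both ways. In the same order this measure was 1.24 and 1.73 for H2-Aa and 1.12 and 1.66 for H2-Ab1. For Cd74 it was 0.93 and 0.76, for H2-Eb1 1.49 and 1.43, for H2-DMa 0.85 and 0.68, and for H2-DMb1 0.72 and -0.001. For single genes this measure lay between 0.72 and 1.49 in AEG-1DMAC except for Ciita, which was at 3.97, with up to 8 UMIs of Ciita in 1 spot before thinning. In AEG-1fl/fl no thinned spot had more than 1 Ciita UMI, in 66 spots, so this measure has no reading there.

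**Figure D4:**
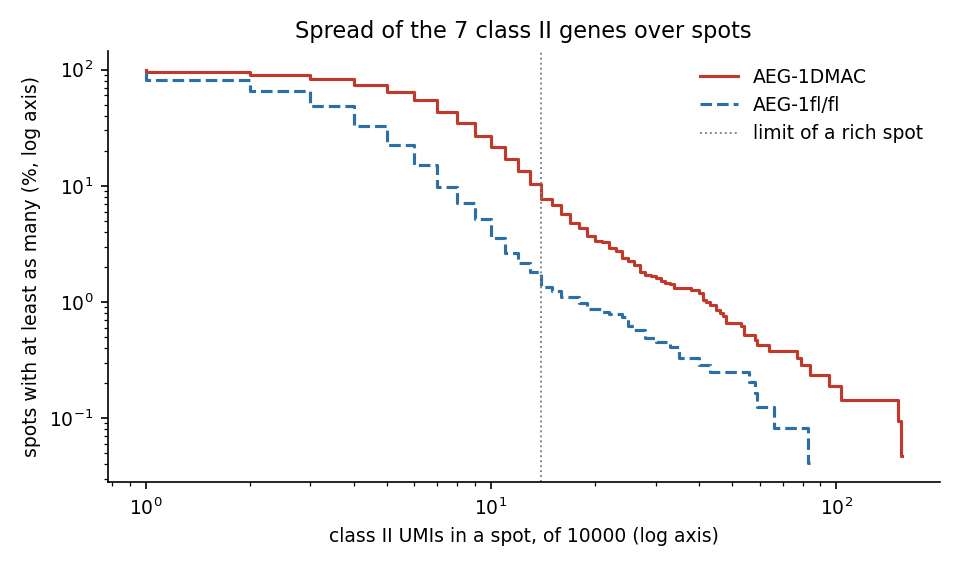
Percent of spots (log axis) with at least a given number of class II UMIs (log axis) after thinning each spot to 10000 UMIs, for AEG-1DMAC (solid line, 2114 spots) and AEG-1fl/fl (dashed line, 2434 spots). The solid line lies above the dashed line throughout, and at 14 UMIs, the dotted line, the values are 10.4% and 1.81%.

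Spots rich in class II were those with at least 14 such UMIs, the 95th percentile of both libraries weighted equally. They made up 10.4% (9.09 to 11.7) of AEG-1DMAC spots and 1.81% (1.32 to 2.42) of AEG-1fl/fl spots. This difference depends on the same ratio of levels and is no separate result. Of the rich AEG-1DMAC spots 45.2% lay in the zone 1 part and 26.0% in the zone 3 part. Of the 44 rich AEG-1fl/fl spots 65.9% lay in zone 1 and 0 of 44 in zone 3. For 0 of 44 an approximate upper limit of the share is 6.82%, which is not an exact binomial limit. The same limit of 14 UMIs takes a larger share of AEG-1DMAC spots. These shares by zone therefore depend on the ratio of levels too and give no comparison of the genotypes.

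The 7 genes tended to be found in the same spots. Over 2114 AEG-1DMAC spots, which share a library and a thinned depth, the Pearson correlation of log(1 + UMIs) of a gene with the sum of the other 6 was 0.50 for Cd74, 0.42 for H2-Aa, 0.40 for H2-Ab1 and 0.35 for H2-Eb1. H2-DMa, Ciita and H2-DMb1, with fewer UMIs, had 0.20, 0.21 and 0.18. Over 2434 AEG-1fl/fl spots the values ran from 0.34 for Cd74 to 0.11 for Ciita. A correlation of sparse counts rises with their level, so the values of different genes, lists or libraries give no order among them.

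Of 8693 other genes that averaged 5 CPM or more, those whose spot pattern was most like the class II sum were named by the mean of this correlation over both libraries, a measure that favours abundant genes. Tmsb4x, a small actin-binding protein abundant in blood and immune cells, had 0.49, Spp1 (osteopontin, made by bile duct cells) 0.31 and Mgp, a matrix protein of vessel walls, 0.27. Gsn, C7 and Dpt had 0.26, 0.25 and 0.25, and Col1a1, C1qa, S100a6 and Col3a1 had 0.24, 0.24, 0.24 and 0.23. On UMIs without the log, Tmsb4x had 0.67 and C1qa 0.17, and the other 8 lay between 0.39 and 0.49. The median over all genes compared was 0.00 and the 99th percentile 0.13. Col1a1 and Col3a1 are fibrillar collagens, Dpt is a matrix protein, Gsn an actin-severing protein and C7 a complement protein, and C1qa is a complement subunit made by Kupffer cells. Several of them did not share the difference between the libraries. Tmsb4x had 737 and 772 CPM, a log2 ratio of -0.07, and Col3a1 had 62.2 and 81.6 CPM, a log2 ratio of -0.39. Gsn, C7 and Dpt were higher in AEG-1DMAC, with log2 ratios of 1.40, 1.75 and 0.96.

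Among marker lists, the class II sum had a spot correlation of 0.38 with Kupffer markers in AEG-1DMAC and 0.32 in AEG-1fl/fl, of 0.33 and 0.26 with vessel wall markers, of 0.30 and 0.29 with cholangiocyte markers, and of 0.24 and 0.12 with dendritic cell markers. Without the log the order was another, with 0.19 and 0.19 for Kupffer, 0.46 and 0.58 for vessel wall, 0.44 and 0.39 for cholangiocyte and 0.46 and 0.28 for dendritic cell markers. With sinusoidal endothelium it had 0.09 and 0.02, and with B cell markers 0.08 and 0.06. In counts, AEG-1DMAC spots with a vessel wall UMI held a mean of 12.9 class II UMIs against 7.32 in the others, and AEG-1fl/fl spots 5.56 against 3.70. Spots with a dendritic cell UMI held 11.7 against 7.29 in AEG-1DMAC and 5.38 against 3.86 in AEG-1fl/fl. The 10% of spots richest in Kupffer markers held 10.9 class II UMIs in AEG-1DMAC, a log2 ratio over the rest of 0.45 (0.39 to 0.51), and 6.03 in AEG-1fl/fl, 0.62 (0.54 to 0.69) over the rest. The 10% richest in sinusoidal endothelium held 8.11 against 8.38 and 4.17 against 4.17. Spots of AEG-1DMAC without the markers of a list held more class II UMIs than spots of AEG-1fl/fl with them, in every list plotted. That order also rests on the ratio that the genes had been picked on.

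**Figure D5:**
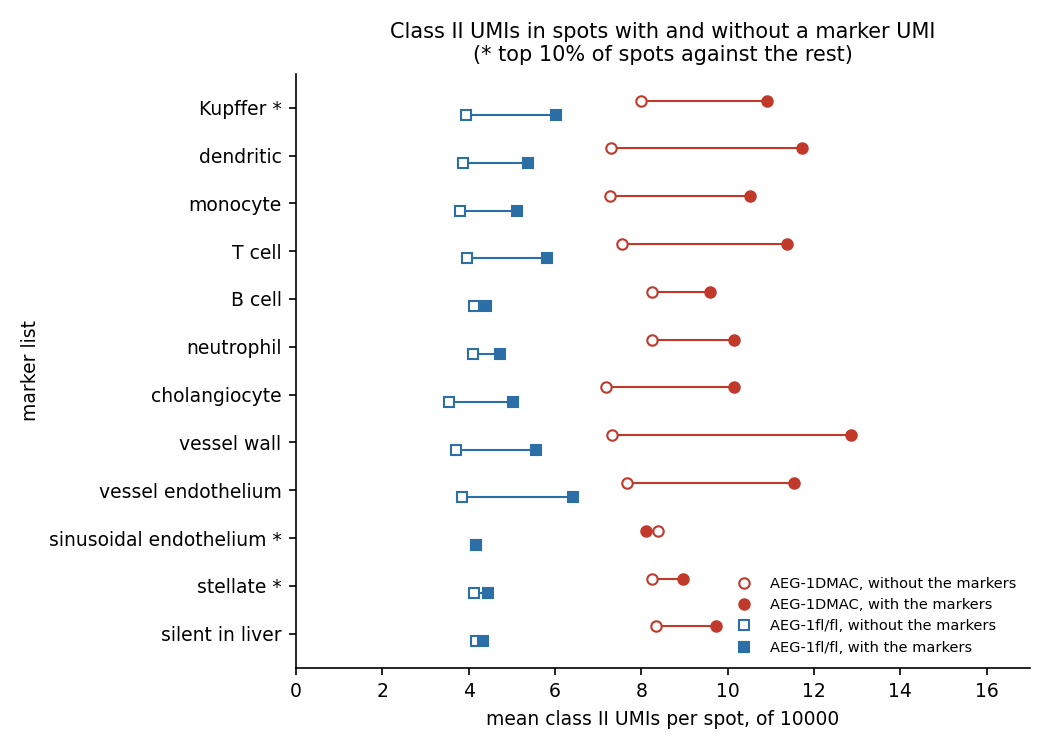
Mean class II UMIs per spot thinned to 10000 UMIs, in spots with (filled) and without (open) a UMI of each marker list, or in the top 10% of spots against the rest for lists found in nearly every spot (marked *), for AEG-1DMAC (circles) and AEG-1fl/fl (squares). The open circles lie between 7.19 and 8.38 and the filled squares between 4.17 and 6.42.

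Facts of the libraries bear on all of these values. The AEG-1DMAC library had 45453286 UMIs over 2140 spots, with a median of 20929.5 per spot, and the AEG-1fl/fl library had 50322850 UMIs over 2540 spots, with a median of 18285. The libraries shared 1782 spot barcodes, as barcodes of this assay come from 1 fixed list. Mtdh had 66.3 and 60.2 CPM, a log2 ratio of 0.14 (0.07 to 0.21), and since a spot sums hepatocytes with all other cells this does not check the deletion. Alb, the main hepatocyte product, took 8.80% and 14.2% of UMIs. CPM are shares of a total, so such differences enter every ratio, and ratios are best read beside the median of all genes.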

How the data were processed

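Formalin-fixed liver sections, 1 of AEG-1DMAC and 1 of AEG-1fl/fl, were profiled by the authors on the 10x Visium platform with mouse probe sets. Per the labels and the submitters' processing notes, reads were processed with Space Ranger 2.0.1 against mm10 and analysed with Seurat 4.3.0. Each deposited matrix gives the count of UMIs of every gene in every spot, not normalised, and spot positions were not used here.

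Spots with at most 50000 UMIs and 100 to 7000 genes were kept, as in the study's methods, which removed 9 of 2149 and 3 of 2543 spots. UMIs were summed over spots and scaled to CPM (exact Poisson 95% intervals). Log2 ratios carry exact conditional binomial (Clopper-Pearson) 95% intervals, and shares of spots carry exact binomial ones. At 1 CPM a gene had 45.5 and 50.3 UMIs. No p-value was computed, because spots of a section are not replicates. The zone index was the mean scaled log-normalised value of Cyp2e1, Cyp1a2 and Oat minus that of Pck1, Hal, Gls2, Cyp2f2, Hsd17b13 and Arg1. Thinning drew 10000 UMIs per spot without replacement with a fixed seed. Scripts were run in Python 3.11.15 with numpy 2.4.6 and scipy 1.17.1, and edgeR 4.0.16 in R 4.3.3 gave TMM factors only. The ratio and call steps were tested on simulated data.

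The members and gene lists were chosen with earlier results of these data known. Genes named were the 7 members, the pathway genes past 1.5-fold or at the ends of their list, the 10 genes most like the class II sum, and markers beside a result; H2-Ob, H2-Eb2, Irf8, Rfx5, Irf1 and Ifng were chosen after their values were seen. H2-Ea, Nfyc, Ifi30, Hba-a1 and Ly6c1 were not analysed here. A gene of the regulator list is not reported here and does not enter its count or median. Coordinates are from GENCODE M21 (GRCm38, the assembly of mm10), and promoter windows (250 bases before to 50 after the start) from RefSeq (GRCm38.p6). Alternatives were other scalings, spot filters, spots matched on UMIs, leaving out rich spots, other fold and level limits, another zone index and other thinning.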

Additional observations from a re-analysis of the deposited data

How the results depend on the processing

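The 7 genes' ratios between the libraries stayed above 0 under every alternative, in 56 of 56 values, from 0.59 to 1.32 on the log2 scale. The genes had been picked on this ratio and the alternatives shifted it little. The count could hardly come out otherwise and is no evidence of a class II difference. The log2 ratio of the sum was 0.89 with edgeR TMM factors, 0.88 with median-of-ratios size factors and 0.87 when the 50 most abundant genes were taken out of the library total. These scalings moved the median of all genes from 0.13 to between -0.01 and 0.00. A scaling shifts every gene alike, so the difference from that median, 0.88, is fixed by construction. The sum was at 1.07 among spots matched on UMIs, 1.13 without Cd74 and 0.98 without H2-Ab1. With a limit of 2-fold, 4 members were counted in place of 7.

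The zone ratio of the sum in AEG-1DMAC was -0.41 when only the outermost 10% of spots on either side were compared and -0.22 without the richest 5% of spots. In AEG-1fl/fl it was -0.56 and -0.39 under these settings and -0.87 with an index from landmark genes. Of 42 alternative zone ratios of single members, 41 were below 0, and the other was H2-DMa in AEG-1DMAC without the richest spots. Rich spots made up 8.97% of AEG-1DMAC spots without thinning, and with the 99th percentile as the limit 1.61% of AEG-1DMAC and 0.452% of AEG-1fl/fl spots. The cause was not tested.

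No paired analysis was possible because each genotype had 1 library. Ciita and H2-DMb1 rest on the fewest UMIs of the 7, and the spread between mice is unknown.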

Other observations

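The 1% of spots richest in class II, 22 in AEG-1DMAC with at least 42 UMIs of 10000 and 25 in AEG-1fl/fl with at least 18, differed from the other spots in what else they held. Vessel wall markers had a mean of 8.41 UMIs in these spots against 0.374 in the others in AEG-1DMAC, and 6.60 against 0.357 in AEG-1fl/fl. Cholangiocyte markers had 11.3 against 0.815 and 7.56 against 0.780. Dendritic cell markers had 2.95 against 0.272, with a UMI in 22 of 22 spots, and 1.64 against 0.224, with a UMI in 16 of 25. T cell markers had 2.32 against 0.254 and 0.840 against 0.128. Kupffer markers were nearly level, at 12.3 against 10.2 and 11.1 against 9.49, and B cell markers were at 0.0909 against 0.0923 and 0.200 against 0.219. Red cell RNA went opposite ways in the libraries, with 62.0 UMIs of erythroid genes against 9.78 in AEG-1DMAC and 9.24 against 12.1 in AEG-1fl/fl. These spots were picked on class II UMIs, and the values are descriptions of 1 section of each genotype.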
